A study of Mus musculus with 8 samples.

Results

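Accessible chromatin was described around 8 genes of efferocytosis, the clearance of dying cells, in alveolar macrophages (AMs), the resident macrophages of the airspaces. The genes were Mertk, Axl, Tyro3, Gas6, Mfge8, Tgm2, Stab1 and Timd4. A region belonged to them when a peak of any library lay within the gene body or 20 kb on either side of it (mm10, GENCODE M21 gene models), and peaks of different libraries were joined where they shared a base. By this rule 67 of 82424 merged regions were found. Peaks in at least 2 libraries were present in 62 of the 67 regions, and peaks in all 8 libraries in 44. There were 4 libraries of each genotype. KO libraries (1_2, 1_3, 2 and 3) came from Cd11cCre+ Rxrab fl/fl animals, and WT libraries (1_2, 1_3, 3 and 4) from Rxrab fl/fl animals without Cre in their label. All animals were adult, the labels name no treatment, and both groups carried the floxed alleles of the retinoid X receptor genes Rxra and Rxrb. In KO mice the Cd11c promoter drives Cre, and this promoter is also active in dendritic cells and some other myeloid cells. Mature AMs were sorted from bronchoalveolar lavage by flow cytometry, per the study, and assayed by ATAC-seq, where Tn5 transposase inserts into open DNA. The comparison asks where chromatin accessibility depended on RXRs.

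Macrophages find apoptotic cells through phosphatidylserine exposed on the dying cell. Mertk, Axl and Tyro3 are the TAM receptor tyrosine kinases, which bind phosphatidylserine through the bridging ligands Gas6 and protein S, whereas Mfge8 bridges it to integrins. Tgm2 is a transglutaminase that acts as an integrin co-receptor during engulfment, Stab1 (stabilin-1) binds phosphatidylserine directly, and Timd4 (TIM-4) is a phosphatidylserine receptor typical of some other resident macrophages, such as those of the peritoneum. AMs are known for Axl expression, and nuclear receptors that pair with RXR, the LXRs and PPARs, are known to act on several efferocytosis genes in macrophages.

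The unit of measurement was the summit tag, the number of overlapping read ends at the top of a peak, worked back as a whole number from the fold and the p-value in each list. The lists held 60363 to 72484 peaks, and relative depth, given by the genome-wide background per library, ran from 1.12 to 2.26 tags. The median summit of the regions shared by all libraries was 57 to 68 tags in KO and 60 to 91 in WT, so raw tags of WT libraries were higher on the whole and tests used log2(tags + 0.5) centred on each library's median. Promoter peaks were present in all 8 libraries for 7 of 9 AM markers (Siglecf, Itgax, Marco, Car4, Fabp4, Pparg and Cidec) and for 4 of 4 pan-macrophage markers. No library had a promoter peak at any of 3 T cell, 2 B cell markers or the endothelial marker Cdh5, whereas S100a8 (neutrophil), Epcam and Foxa2 (epithelial), and Cx3cr1 and Ly6c2 (interstitial macrophage or monocyte) had one in all 8. Ly6g and Elane of the neutrophil list and Sftpc of the epithelial list had no promoter peak in any library. In the interstitial macrophage or monocyte list, Ccr2 had a promoter peak in 2 libraries and C1qa in 1. Summed promoter tags were 125 to 178 in KO and 134 to 220 in WT for the neutrophil list, all from S100a8. For the epithelial list, from Epcam and Foxa2, they were 23 to 41 in KO and 33 to 70 in WT. The libraries were made from sorted AMs, and the part of other cells in the results was not tested. In a bulk library, fewer cells with an open site and less opening per cell cannot be told apart. Within the deleted genes the lists cannot show the loss of exons: 12 regions of Rxra and 1 of Rxrb had a peak in every library, none was called lower in KO, and 1 region of Rxra was called higher.

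Replicates of a genotype were compared before they were treated as samples. The labels do not say that they came from separate animals, so p-values measure the spread between these libraries, which may be technical. KO 1_2 and KO 1_3 differed by no more than counting noise (chi-square per degree of freedom 0.98 over 47499 regions), and so nearly did KO 2 and KO 3 (1.01), while the other pairs within a genotype gave 1.10 to 1.99. Summits are maxima and may vary less than single counts, so the 4 KO libraries were kept as 4 samples, and counts with each of these KO pairs taken as 1 sample are given beside the main counts. Leaving out 1 library of such a pair keeps the other in the fit. The fits without 1 library, given below, therefore do not measure the spread between animals.

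The windows around the summits of 6 of the 7 regions that differed between genotypes are shown first, because the results turn on them. They are GRCm38 sequence of the plus strand, 5′ to 3′, cut where an exon begins. Capitals mark matches to the patterns described further on, which are DR1 and DR4 (a pair of AGGTCA half-sites spaced by 1 or 4 bases, up to 2 mismatches over 12 bases), PU.1 (GAGGAAGT), AP-1 (TGANTCA), RUNX (TGTGGTT) and an ISRE core (a pair of GAAA runs spaced by 2 bases). The first 4 regions were lower in KO and the last pair higher.
Mertk intron 13, chr2:128782330-128782522: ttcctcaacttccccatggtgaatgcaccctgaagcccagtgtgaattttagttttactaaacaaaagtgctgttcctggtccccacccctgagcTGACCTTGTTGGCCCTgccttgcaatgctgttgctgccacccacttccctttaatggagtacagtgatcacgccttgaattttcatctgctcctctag
Mertk intron 1 (second site), chr2:128722280-128722479: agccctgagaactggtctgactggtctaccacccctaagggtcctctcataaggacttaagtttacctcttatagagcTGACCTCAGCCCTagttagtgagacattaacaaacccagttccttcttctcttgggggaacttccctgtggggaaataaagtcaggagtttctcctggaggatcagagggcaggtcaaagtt
Axl intron 12, chr7:25768793-25768992: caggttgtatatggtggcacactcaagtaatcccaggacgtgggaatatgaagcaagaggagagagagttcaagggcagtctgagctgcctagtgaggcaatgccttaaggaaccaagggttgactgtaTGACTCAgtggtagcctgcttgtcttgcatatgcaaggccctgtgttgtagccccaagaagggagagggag
Mertk intron 1 (first site), chr2:128710976-128711175: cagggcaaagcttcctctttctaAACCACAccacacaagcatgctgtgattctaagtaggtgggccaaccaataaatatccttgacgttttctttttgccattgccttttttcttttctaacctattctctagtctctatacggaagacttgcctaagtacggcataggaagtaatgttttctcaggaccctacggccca
Stab1 intron 1, chr14:31166102-31166301: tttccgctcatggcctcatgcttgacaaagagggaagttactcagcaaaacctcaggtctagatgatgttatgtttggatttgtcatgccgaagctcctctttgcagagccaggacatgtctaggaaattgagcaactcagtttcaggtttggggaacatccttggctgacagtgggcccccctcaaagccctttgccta
Mfge8 promoter, upstream of the start site, chr7:79149061-79149230: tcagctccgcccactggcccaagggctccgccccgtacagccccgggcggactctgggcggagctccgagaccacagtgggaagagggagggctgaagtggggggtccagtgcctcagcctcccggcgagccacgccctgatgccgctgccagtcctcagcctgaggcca

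Over the 44 regions tested at the 8 genes, 5 were lower and 2 were higher in KO (limma, Benjamini-Hochberg adjusted p under 0.05 over all 47499 regions). Genome-wide, 7.03% of the regions tested were called lower and 5.81% higher. The 5 lower regions lay in introns of 2 TAM receptor genes, 4 in Mertk and 1 in Axl. The 2 higher regions were the promoter of Mfge8 and an intronic region of Stab1. With each KO pair taken as 1 sample, 3 regions were lower (Mertk introns 1, second site, and 8, and Axl intron 12) and 0 higher. Of the 44 differences, 25 were below 0 and their median was -0.09 on the log2 scale, against 0.04 over all regions tested, and the SD of the members' median between libraries of a genotype was 0.09. Without 1 library at a time this median ran from -0.13 (without KO 1_3) to -0.024 (without WT 4), and it was -0.046 without KO 2. No region was called at Tyro3, Gas6, Tgm2 or Timd4.

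**Figure D1:**
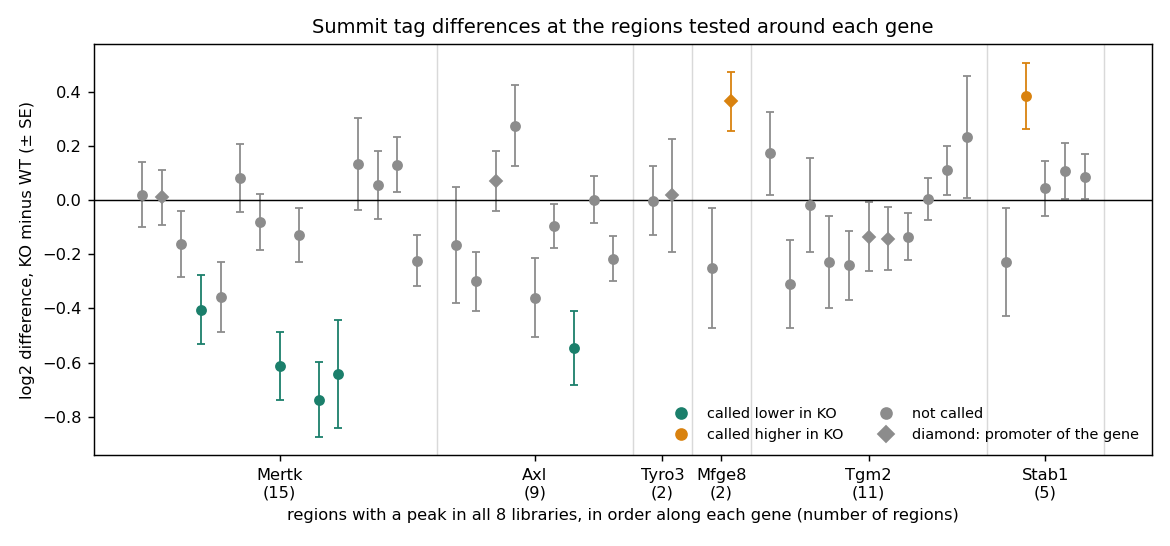
Log2 difference (KO minus WT, ± SE) of the 44 regions tested, in order along each gene, with promoters as diamonds. The regions called lower lie at Mertk and Axl between -0.74 and -0.40, and the 2 called higher, at Mfge8 and Stab1, are at 0.36 and 0.38.

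Mertk, the TAM receptor most associated with tonic clearance of apoptotic cells by macrophages, spans chr2:128698956-128802894 on the plus strand and had 21 regions, of which 15 were found in every library. Of these 15, 4 were lower (26.7%) and 0 higher in KO, and the median difference was -0.13. The promoter, a region at chr2:128698108-128699109 with its summit 135 bp upstream of the start site, was not among them. It held 134, 139, 159 and 154 tags in KO (libraries 1_2, 1_3, 2 and 3) and 172, 201, 164 and 142 in WT (libraries 1_2, 1_3, 3 and 4). The 2 groups overlapped, and the log2 difference after centring was 0.01 ± 0.10 (SE, 95% interval -0.19 to 0.21, adjusted p = 0.967 by limma). The sites that differed lay inside the gene.

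The region with the lowest value in KO relative to WT at any of the 8 genes was chr2:128770746-128771583, in intron 8 of the 19-exon Mertk transcript and 72.3 kb from its start. It held 45, 62, 77 and 54 tags in the KO libraries (in the order above, as throughout) and 109, 145, 106 and 98 in the WT libraries. All 4 KO libraries were below all 4 WT libraries, both in raw tags and after centring. Mean tags were 59.5 ± 13.6 for KO, against 114.5 ± 20.9 for WT (SD, n = 4 per genotype), and the log2 difference was -0.74 ± 0.14 (adjusted p = 0.000121 by limma), a ratio of 0.60. The call held in all 8 fits that left out 1 library, with adjusted p between 9.5e-06 and 0.00181.

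In intron 1, 8 regions lay between 5.2 and 27.6 kb from the Mertk start. The first and the last of these had a peak in 2 KO and 1 WT library each and were not tested. Of the others, 2 were lower in KO. The site at chr2:128722203-128722665, 23.4 kb from the start, held 124, 131, 75 and 63 tags in KO and 148, 193, 165 and 163 in WT. The groups did not overlap, but the KO libraries fell into 2 pairs, with 1_2 and 1_3 near the WT range and 2 and 3 well under it. The means were 98.2 ± 34.2 in KO and 167.2 ± 18.8 in WT, and the log2 difference was -0.61 ± 0.13 (adjusted p = 0.000434 by limma). Leaving out 1 library at a time gave adjusted p from 4.6e-05 to 0.00904.

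The other lower site of intron 1, chr2:128710732-128711282, lay 12.1 kb from the start and held 80, 72, 49 and 60 tags in KO and 89, 116, 115 and 80 in WT. In raw tags the groups met at 80, and after centring they did not overlap. Its log2 difference was -0.40 ± 0.13 (adjusted p = 0.0268), and it was not called without KO replicate 2 or without WT replicate 3, where the adjusted p reached 0.156, nor when libraries were scaled by background depth. A neighbour at chr2:128717378-128717718 held 70, 70, 51 and 49 tags in KO and 81, 115, 94 and 69 in WT and narrowly missed the threshold, with a log2 difference of -0.36 ± 0.13 and an adjusted p of 0.054. It is named here because of its value.

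Further into the gene, the weak region at chr2:128782233-128782596 in intron 13 held 23, 16, 22 and 23 tags in KO and 27, 47, 39 and 42 in WT. Raw tags did not overlap, and centred values did. The log2 difference was -0.64 ± 0.20 (adjusted p = 0.0241), and the call was lost without KO replicate 1_3, WT replicate 3 or WT replicate 4, with an adjusted p of up to 0.109. Between these sites, in intron 4, a region at chr2:128747627-128747854 had a peak of 31, 29 and 21 tags in WT replicates 1_3, 3 and 4 and none in WT 1_2 or in any KO library. It was not testable by tags. At the local background of the libraries that had the peak, scaled for depth, a list without it would have needed a summit of at least 13 to 19 tags, so its absence says only that fewer were present.

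The remaining tested regions of the Mertk window were not called. The most accessible one outside the promoter lay in an intron of the neighbouring gene Tmem87b (chr2:128818963-128819401) and held 150, 164, 150 and 123 tags in KO and 178, 224, 218 and 176 in WT. Every KO library was below every WT library in raw tags, but not after centring, and the log2 difference of -0.22 ± 0.09 had an adjusted p of 0.107. The promoters of the neighbours Anapc1 and Tmem87b, inside the same window, gave differences of 0.02 and 0.13.

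**Figure D2:**
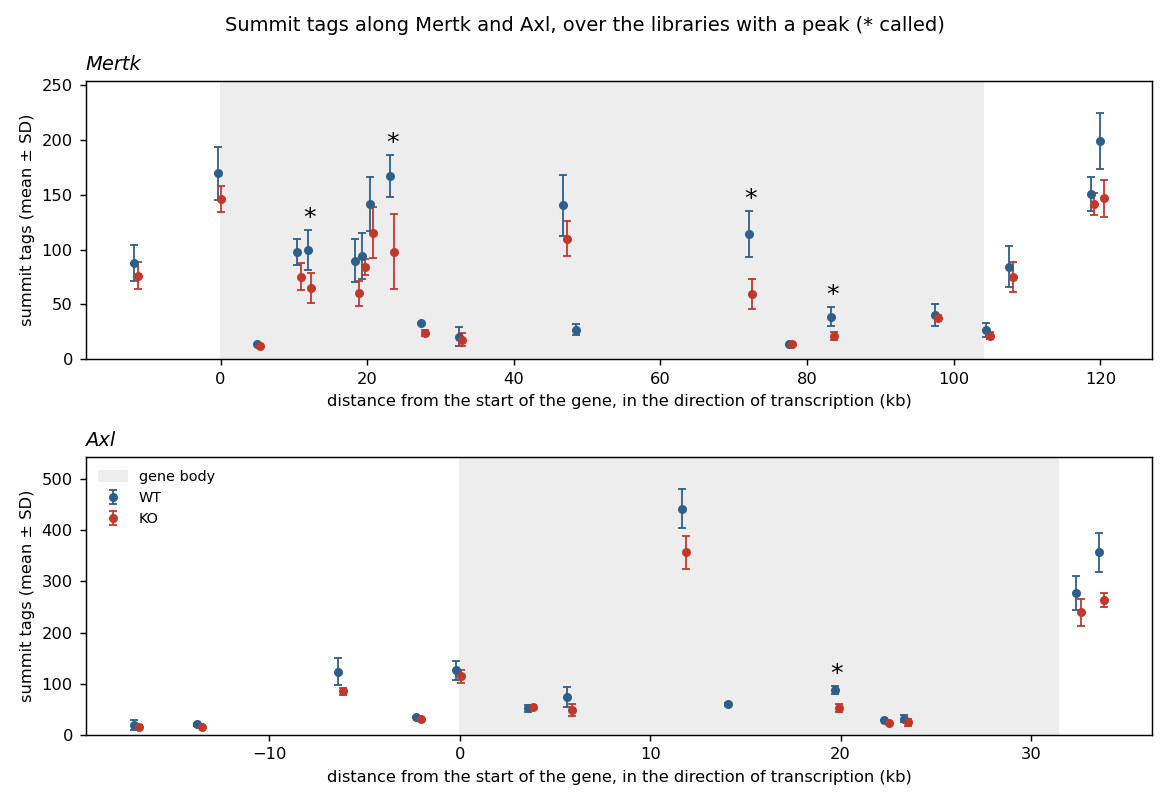
Summit tags (mean ± SD over the libraries with a peak) against distance from the start of Mertk, above, and Axl, below, with WT in blue, KO in red, the gene body shaded and called regions starred. At Mertk the starred sites lie 12.1, 23.4, 72.3 and 83.5 kb into the gene while the promoter means are 146.5 in KO and 169.8 in WT.

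Axl, the TAM receptor characteristic of AMs, lies on the minus strand at chr7:25757273-25788705. Its window held 14 regions, 9 with a peak in all 8 libraries, of which 1 was lower and 0 higher in KO (median difference -0.16). The lower one was chr7:25768704-25769072, in intron 12 and 19.8 kb from the start. It held 51, 62, 43 and 50 tags in KO and 86, 91, 94 and 77 in WT, with every KO library below every WT library before and after centring. The means were 51.5 ± 7.9 and 87.0 ± 7.4 tags, and the log2 difference was -0.55 ± 0.14 (adjusted p = 0.00416 by limma). All 8 fits without 1 library kept the call, with adjusted p from 0.00249 to 0.0242.

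The Axl promoter (chr7:25788508-25788984, summit 60 bp upstream) held 131, 113, 103 and 109 tags in KO and 101, 145, 128 and 132 in WT, and the groups overlapped. The log2 difference was 0.07 ± 0.11 (95% interval -0.15 to 0.29, adjusted p = 0.734). The strongest site of the gene was in intron 6, 11.8 kb from the start (chr7:25776658-25777209), with 360, 402, 331 and 335 tags in KO and 425, 461, 484 and 399 in WT. Its summits outranked on average 98.8% of the peaks of their own lists. After centring the groups overlapped, and the difference was -0.10 ± 0.08 (95% interval -0.26 to 0.07, adjusted p = 0.478). The most open element of Axl thus did not pass the test, whereas the much weaker site in intron 12 did.

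A region in intron 7, 14.2 kb from the start (chr7:25774300-25774616), had peaks of 57, 62 and 60 tags in WT replicates 1_3, 3 and 4, and none in WT 1_2 or any KO library. The background around it was high, at 15.8 to 19.9 tags, so the folds were only 2.78 to 3.64. A list without the peak would have needed 25 to 37 tags at this background. The 3 WT summits were above that number, and the tags of the libraries without a peak are not known.

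At the 8 genes, no region was listed in 4 of 4 libraries of either genotype and 0 of 4 of the other. Genome-wide 0.82% of the 72711 regions found in at least 2 libraries were WT-only and 0.285% KO-only by this rule. Allowing 1 library to depart, the 2 regions just described, in Mertk intron 4 and Axl intron 7, counted as WT-sided and none as KO-sided, against 3.46% and 1.2% of all regions. The number of the 67 regions with a peak was 54 to 55 per KO library and 54 to 60 per WT library, and the highest count was in the deepest library, WT 1_3. Beyond the window, 47.0 kb from Axl, the region chr7:25709997-25710258 held 154, 185, 169 and 177 tags in the WT libraries and had no peak in any KO library. Its nearest start site is that of Ccdc97. It was the one WT-only region within 50 kb of any of the 8 genes.

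Tyro3, the third TAM receptor, was little accessible. A weak region at chr2:119799168-119799872, 91 bp upstream of an internal start site, held 20, 17, 19 and 13 tags in KO and 17, 27, 16 and 20 in WT. The groups overlapped, and the difference was 0.02 ± 0.21 (95% interval -0.40 to 0.44, adjusted p = 0.970). The strongest region in its window belonged to the promoter of the neighbour Rpap1 and held 58 to 78 tags in KO and 63 to 108 in WT (difference 0.00 ± 0.13, adjusted p = 0.993).

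Gas6, the ligand that bridges phosphatidylserine to the TAM receptors, had 3 regions, none with a peak in all libraries. The promoter region (chr8:13494297-13494710) held 12 tags in KO replicates 1_3 and 2 and no peak in KO 1_2 and 3, and 15, 12, 13 and 13 tags in WT. These summits ranked on average above 4.4% of the peaks of their lists, and a list without a peak would have needed 6 to 8 tags. A region 6.89 kb upstream of the start held 11, 14 and 13 tags in KO 1_3, 2 and 3 and 14 and 11 in WT 1_3 and 4, with no peak in the other 3 libraries. The remaining one, in the neighbouring gene Tmem255b, was a single peak of 14 tags in WT 1_3. No KO and WT difference could be tested at Gas6.

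Mfge8, the bridge to integrins, had 4 regions, and its promoter (chr7:79148718-79149328, summit 71 bp upstream of the start site on the minus strand) was higher in KO. It held 118, 133, 109 and 94 tags in KO and 113, 116, 96 and 84 in WT. Raw tags overlapped, and after centring every KO library was above every WT library. The means were 113.5 ± 16.3 and 102.2 ± 15.0 tags, and the log2 difference was 0.36 ± 0.11 (adjusted p = 0.0195), a ratio of 1.29. The call depended on single libraries: without KO 1_3, WT 1_3 or WT 3 it was lost, with an adjusted p of up to 0.101, and scaling by background depth also ended it. The other Mfge8 region tested, 18.3 kb upstream of the start site, held 10 to 18 tags in KO and 14 to 25 in WT (difference -0.25 ± 0.22, adjusted p = 0.504).

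Tgm2, the transglutaminase, held the region with the most tags at the 8 genes. Its window held 14 regions, 11 with a peak in all 8 libraries, and 0 were called in either direction (median difference -0.14, range -0.31 to 0.23). A region in intron 4 at chr2:158132934-158133536 held 535, 531, 448 and 476 tags in KO and 546, 621, 590 and 542 in WT, and outranked on average 99.8% of the peaks of its lists. Raw tags of the 2 groups did not overlap, centred tags did, and the log2 difference was 0.00 ± 0.08 (95% interval -0.15 to 0.16, adjusted p = 0.981). The promoter region at chr2:158146215-158146629 held 92, 100, 70 and 69 tags in KO and 94, 98, 117 and 109 in WT (difference -0.14 ± 0.13, adjusted p = 0.536). A second region, 830 bp inside the gene at chr2:158145232-158145810, held 159, 153, 90 and 92 tags in KO and 134, 179, 156 and 145 in WT (difference -0.14 ± 0.12, adjusted p = 0.457). In raw tags at both, KO 2 and KO 3 were low and KO 1_2 and 1_3 were nearer to the WT libraries, as at the second Mertk site of intron 1. After centring, KO 2 and KO 3 stayed below every WT library at the second region (0.58 and 0.69, lowest WT 0.93). At the promoter region they did not (0.22 and 0.27, with WT 1_3 at 0.11). The most negative value in the window was -0.31 ± 0.16, at chr2:158156512-158156854 upstream of the gene, where KO held 35, 44, 37 and 31 tags and WT 57, 54, 51 and 49 (adjusted p = 0.215).

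Stab1, the scavenger receptor stabilin-1, had no region within 1 kb of its start site, and 8 in its window. A region in intron 1, 2.4 kb from the start (chr14:31165979-31166608), was higher in KO. It held 100, 100, 102 and 84 tags in KO and 72, 104, 78 and 91 in WT, and the groups overlapped both before and after centring. The log2 difference was 0.38 ± 0.12 (adjusted p = 0.0278), a ratio of 1.31, and the call was kept in 2 of 8 fits without 1 library, with adjusted p between 0.0028 and 0.12, and lost when libraries were scaled by background depth. The other region of the gene body with a peak in all libraries, in intron 11 (chr14:31160447-31161039), held 139 to 184 tags in KO and 159 to 199 in WT (difference 0.04, adjusted p = 0.831). The strongest region of the window was the promoter of the neighbour Smim4, with a difference of 0.09 ± 0.08 (adjusted p = 0.552).

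Timd4 had no peak in any of the 8 libraries within 20 kb of the gene. The nearest region in any list was 178.9 kb away, and it was present in 2 libraries. Gata6, the other peritoneal macrophage marker checked, had a promoter peak in 3 WT and 0 KO libraries, of at most 15 tags.

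**Figure D3:**
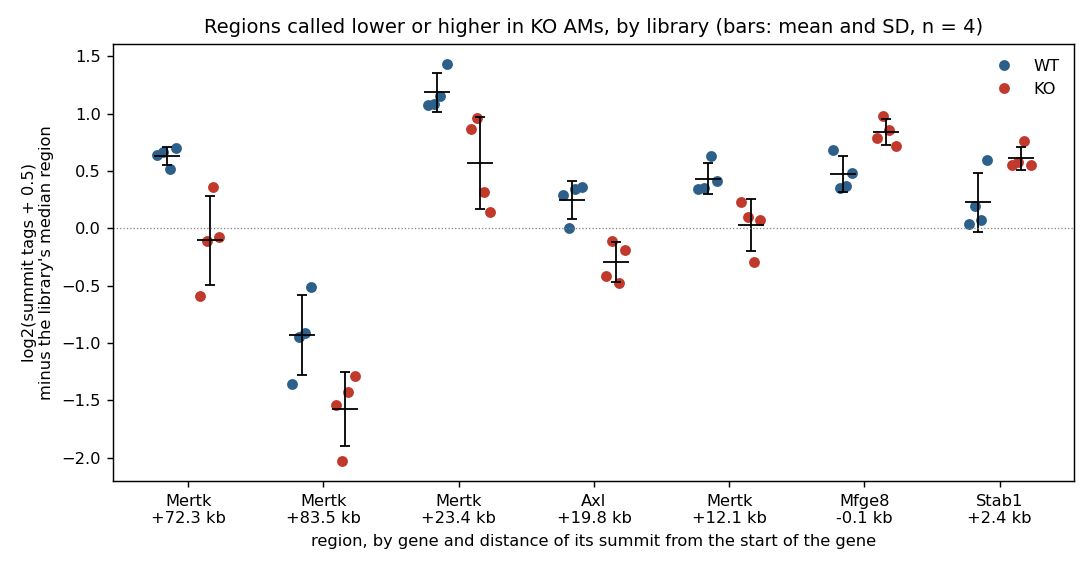
Centred log2 summit tags of the 7 called regions in each library, WT in blue and KO in red, with mean and SD (n = 4 each). KO and WT points overlap at Mertk +83.5 kb and Stab1 +2.4 kb and are apart at the others. The regions were selected by the test on these same values, so their separation is not further evidence. Uncalled regions at Mertk (chr2:128717378-128717718) and Tgm2 (chr2:158135943-158136682) did not overlap after centring either.

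Promoters fell into 2 levels. Over the 8 libraries the mean summit was 158.1 tags at Mertk, 138.5 at the inner Tgm2 region, 120.2 at Axl, 107.9 at Mfge8 and 93.6 at the outer Tgm2 region, and the ranges of neighbours in this order overlapped. Tyro3 (18.6 tags) and Gas6 (12.8 tags in the 6 libraries with a peak) were below every value of the others. The one promoter called different between genotypes was that of Mfge8.

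**Figure D4:**
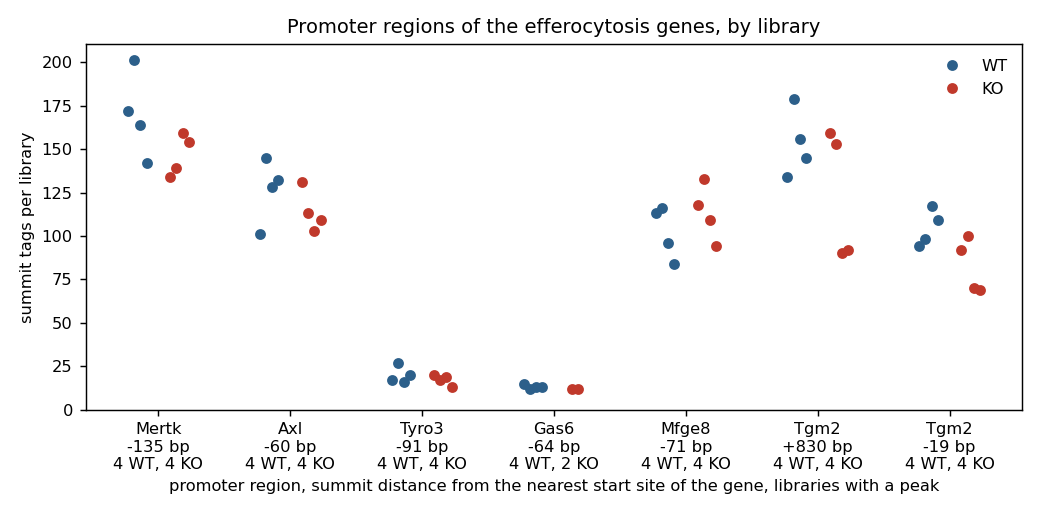
Summit tags of each library at the promoter regions, WT in blue and KO in red, with the number of libraries that had a peak. Mertk, Axl, Mfge8 and Tgm2 lie between 69 and 201 tags, Tyro3 and Gas6 between 12 and 27.

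The deposited fold enrichment gave fewer calls than the tags, at the 8 genes and over all regions tested. It divides the summit by a background estimated around the peak, and at the 5 sites lower in KO this background was also lower in KO. That was not particular to them. The background was lower in KO at the uncalled regions tested at the 8 genes too, such as Axl intron 6 (13.74 in KO, 18.18 in WT). Of all regions tested there, the Mfge8 promoter alone had the higher background in KO (4.275, against 3.9 in WT). At Mertk intron 8 the mean background was 2.90 tags in KO and 5.69 in WT, and the log2 difference of the fold was -0.12 (adjusted p = 0.552). In Mertk intron 1 (second site) the backgrounds were 12.70 and 17.32 and the fold difference was -0.35 (adjusted p = 0.259), and at Axl intron 12 they were 3.75 and 5.95 and the difference was -0.15 (adjusted p = 0.51). By the fold, 0 of the 44 regions were called in either direction. Over all 47499 regions tested, 1038 were called lower and 640 higher by the fold, against 3337 and 2760 by the tags. At an unadjusted p under 0.05 by limma, 1 was lower and 8 were higher by the fold, against 10 lower and 2 higher by the tags. Over all 47499 regions tested, 9040 passed this threshold by the fold and 12468 by the tags, both directions together. These genome-wide counts were not split by direction, so nothing is read from the split at the 8 genes. The calls at the 8 genes are statements on summit height relative to the library's median region. The backgrounds above were not corrected for depth, and whether tags of the peak itself raised them was not tested. No statement on the surrounding chromatin is drawn from the fold.

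Sequence around the summits was searched for short patterns within 100 bases on both strands in the 62 regions found in at least 2 libraries, and in all 72711 such regions. DR1, the type of element bound by RXR with PPARs, was present in 3 of 62 (4.84%, against 4.14% of all). DR4, the type bound by RXR with LXRs, was present in 5 of 62 (8.06%, against 2.63%). In the regions lower in KO, a DR1 match lay in Mertk intron 1 (second site) and a DR4 match in Mertk intron 13, each with 2 mismatches and with its first base at -22 and -5 from the summit. A DR4 match was also present at the WT-sided region of Mertk intron 4. The other DR1 matches lay at uncalled regions of the Tgm2 window. The other DR4 matches lay at uncalled or untested regions in the windows of Mertk, Tgm2 and Stab1. PU.1 was present in 6 (9.68%, against 10.7%), AP-1 in 6 (9.68%, against 11.9%), RUNX in 4 (6.45%, against 8.98%) and the ISRE core in 3 (4.84%, against 2.78%). Axl intron 12 held an AP-1 match and Mertk intron 1 (first site) a RUNX match. These matches are descriptions of the letters only. The median GC content of the member windows was 51.7% (all regions 50.7%), and 3 of 62 (4.84%) were mostly repeat-masked sequence, against 4.65% of all. Of the 67 regions, 39 had their summit in an intron, 26 between genes and 2 in an exon.

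A list of 44 other genes of efferocytosis, written down with earlier results of these data known, gave the setting. Of their 313 regions with a peak in all libraries, 16 were lower (5.11%) and 22 higher (7.03%) in KO, with a median difference of 0.05. The lower ones included Elmo1, an activator of Rac1 in engulfment (differences of -0.78 ± 0.21 and -0.77 ± 0.21, adjusted p = 0.00857 and 0.0101), the scavenger receptor Msr1 (-0.72 ± 0.19, adjusted p = 0.00636) and a region in the window of Ppard, within its neighbour Def6 (-0.56 ± 0.15, adjusted p = 0.00785). The Elmo1 calls were lost without KO 3 and without WT 1_2 respectively (adjusted p = 0.058 and 0.0509 by limma), and that of Msr1 without KO 1_3 (0.0594). Among the higher ones, Cd93, a receptor with a C-type lectin domain, had a region at its start site with 43, 46, 54 and 47 tags in KO and 18, 28, 19 and 12 in WT. The groups did not overlap, and the difference was 1.55 ± 0.19 (adjusted p = 3e-08). Abca1, the cholesterol exporter, had 2 intronic regions at 1.07 ± 0.11 and 1.03 ± 0.13 (adjusted p = 1.3e-09 and 4.6e-08), and Socs3, a feedback inhibitor of cytokine signalling, had one at 0.95 ± 0.10 (adjusted p = 2.3e-09).

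The lists are given by role, beside genome-wide shares of 7.03% lower and 5.81% higher. Receptors had 5 lower and 7 higher of 115, engulfment signalling genes 6 and 1 of 62, cargo handling genes 0 and 6 of 38, the shedding and feedback list 0 and 5 of 19, the restraint list (Sirpa and Cd47) 4 and 0 of 26, and the regulating receptors (Nr1h2, Nr1h3, Pparg and Ppard) 1 and 3 of 39. All 5 called regions of the shedding and feedback list were at Socs3, and 5 of the 6 of cargo handling were at Abca1. Other bridging and opsonising genes had 14 regions tested and 0 called. Differences between the lists were not tested.

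**Figure D5:**
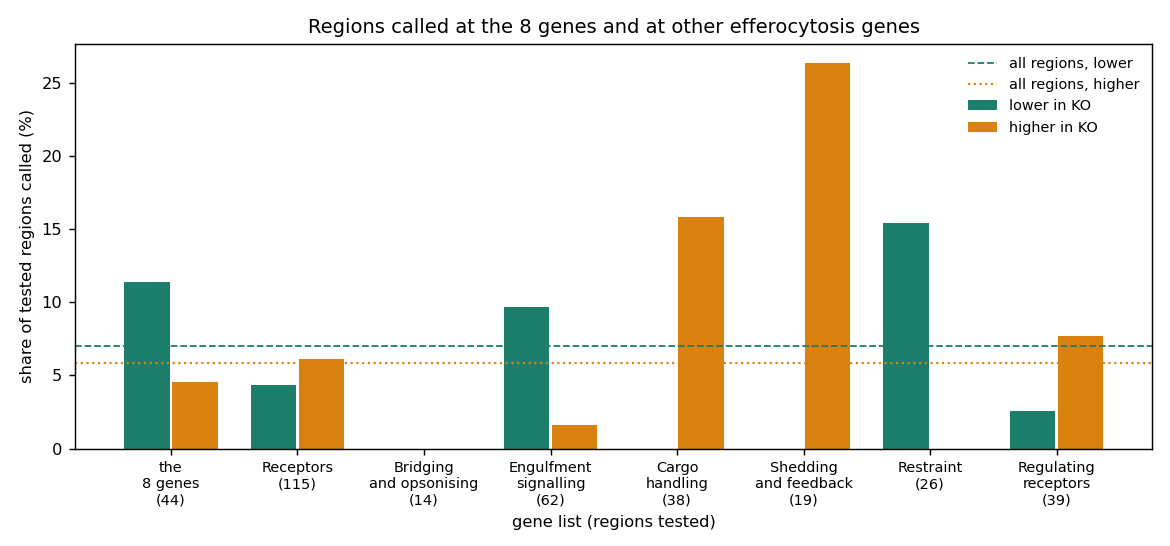
Share of tested regions called lower or higher in KO at the 8 genes and at 7 lists of other efferocytosis genes, with the genome-wide shares as lines (7.03% lower, 5.81% higher). The 8 genes reached 11.4% lower and 4.55% higher, and the tallest bar, at 26.3% of 19 regions, is that of the list holding Socs3.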

How the data were processed

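ATAC-seq peak lists of 8 libraries were analysed, grouped by the sample titles. According to the study's methods and the submitters' processing notes, the authors used Cutadapt for trimming, Bowtie2 for alignment to mm10 and SAMtools to keep proper pairs without duplicates, and called peaks for each library with MACS3 at a q-value of 0.05. Each deposited list gives a fold enrichment (the ratio of summit pileup to local background, each with 1 added), a −log10 p-value and a −log10 q-value, and a display score, deposited by the authors and not used here. The authors' own test of differential accessibility used read counts, which these lists do not hold.

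The fold and the p-value together fix the summit tags under the Poisson model. Whole numbers gave back the p-value of 100% of peaks within a relative error of 1e-05. A deeper library reaches the q threshold at a lower enrichment, so a missing peak is not a 0. Regions with a peak in all 8 libraries were compared with limma 3.58.1 (R 4.3.3; log2 of tags + 0.5, centred on each library's median, trended prior variance, Benjamini-Hochberg adjustment over 47499 regions, threshold 0.05, two-sided). This unit replaces counts, so no count model was fitted. The fit was also run on simulated tags, with a spread set in advance rather than taken from these libraries, and no support for the calls is drawn from it. A promoter region had its summit within 1 kb of a start site in GENCODE M21 (basic set). Sequence was taken from GRCm38, and no peak ran past a chromosome end of that build. The sequence of 1 called region and 1 marker gene are not reported here. Regions were named where they were promoters, were called, had a peak in mostly 1 genotype, had the most tags outside the promoter or, where none was called, the largest difference. Of other efferocytosis genes, those with the 4 largest called differences in each direction were named. The genes, lists and tests were chosen with earlier results of these data known. The largest q-value in the lists was 0.0465.

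The alternatives were 2 other scalings, another pseudocount, the fold in place of tags, other filters and peak thresholds, the nearest summit, replicates averaged, a replicate block, each library left out in turn, and other windows and merging rules. Taking the KO pairs as 1 sample each was added after the data had been seen.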

Additional observations from a re-analysis of the deposited data

Results flagged for a closer look

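In a group of 4 libraries, the gap of the highest or lowest library to its neighbour, divided by the whole range, was set against Dixon's 95% critical value. It was passed in 3 of 58 groups checked, and chance alone passes about 1 in 20. At the Stab1 region in intron 1, KO 2 stood above the other KO libraries after centring (0.898 of the range, with 102 tags against 100, 100 and 84 in the others). At the distal Mfge8 region, 18.3 kb upstream, WT 1_3 stood above the other WT libraries (0.864, with 25 tags against 16, 17 and 14). Of the peaks at the 8 genes, KO 1_2 had 54 and the other KO libraries 55 each, which gives a ratio of 1 from a difference of a single peak.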

How the results depend on the processing

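The calls at Mertk intron 8, Mertk intron 1 (second site) and Axl intron 12 held in 18 of 19 alternatives, all but the fold enrichment, and all 7 called regions kept their direction in all 19. The fold gave 0 lower and 0 higher regions at the 8 genes, a median of 0.065, 3 lower and 4 higher at other efferocytosis genes, and 1038 lower and 640 higher in all. It divides by a background that, without correction for depth, was lower in KO at the 5 lower sites. The same held at the other regions tested at the 8 genes except the Mfge8 promoter. The cause of the loss was not tested further. Scaling by background depth gave 4 lower and 0 higher at the 8 genes, 6 and 10 at the other genes, and 1988 and 575 in all, so that 77.6% of calls were lower against 54.7%, and it moved the median of all regions from 0.04 to -0.01. Quantile normalisation gave 8 lower and 2 higher at the 8 genes, and 3621 and 2364 in all (3337 and 2760 in the main fit). Taking replicates 1_2 and 1_3 as 1 sample gave 5 and 1 at the 8 genes, and 2789 and 2140 in all. The KO pairs as 1 sample each gave 3 and 0 at the 8 genes, 8 and 14 at the other genes and 2006 and 1006 in all (66.6% lower). Leaving out 1 library gave 3 to 6 lower and 0 to 2 higher at the 8 genes, with 3 and 0 without WT 3 and 0 higher without KO 1_3 or WT 1_3. It gave 10 to 16 lower and 16 to 27 higher at the other genes (10 lower without KO 3), and 2650 to 3215 lower and 1767 to 3188 higher in all (1767 without WT 3). With a replicate block, 4 were lower and 2 higher at the 8 genes (median -0.0071), and in all 3280 and 3595 (47.7% lower). Of the 5 lower calls, Mertk intron 1 (first site) and intron 13 then had adjusted p of 0.118 and 0.067, and a region upstream of Axl (chr7:25794740-25795177) was called instead. The same-numbered libraries correlated by 0.06, 0.12 and 0.04 (replicates 1_2, 1_3 and 3) in their deviations from the group means, not all over 0.1, so the numbers were not taken to pair the samples, although each such KO library correlated best with its own number. WT-only regions numbered 1 with windows of 50 kb, and 2 with 1 library allowed to depart, with 1_2 and 1_3 as 1 sample or without WT 1_2 (0 to 2 over all libraries left out). A window of 2 kb left 28 regions with a peak in every library. Depth limits Tyro3, Gas6 and the weak Mertk sites, where summits held few tags.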
